A study of Mus musculus with 8 samples.

Results

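The apolipoproteins Apoa1, Apoa2, Apoa4, Apob, Apoc1, Apoc2, Apod, Apoe and Apom, and Mttp, the microsomal transfer protein that loads lipid onto nascent particles, were followed across 8 arrays of gravid mouse uterus. Members were all probe sets that the array annotation assigns to one of these gene symbols, which gave 16 probe sets for 10 genes among the 28000 probe sets of the table. In 8 of the 10 genes the signal was high on the same 4 arrays, Cox-1 KO replicates 1, 3 and 4 and wild-type (WT) replicate 4, and low on the other 4. Apoe was bright on all 8 arrays, and Apod was dim but of like level on all 8.

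Uterine RNA was taken on gestational day 18.0 from 4 Cox-1 KO females and 4 WT females, 1 mouse per Affymetrix 430 2.0 array. Cox-1 KO mice lack the prostaglandin synthesis gene Ptgs1. Their strain is given as C57BL/6 x Sv129, against C57BL/6 for WT, so genotype and background cannot be told apart. All were aged 6 to 16 weeks, per the labels, and per the methods the uterus was cleared of fetuses, their membranes and placenta. The values are MAS5 signals, the brightness that Affymetrix software gives each probe set, on a linear scale with every array scaled to a target of 1000. A median probe set had a signal of 731 to 757 on an array, and the brightest had 77534 to 93060. Ptgs1 was at 88, 122, 76 and 136 on Cox-1 KO replicates 1 to 4 and 7048, 10610, 10756 and 10508 on WT replicates 1 to 4, so the genotypes matched their labels. Smooth muscle genes, the defining markers of the labelled tissue, were bright on every array (8 of 8 genes measured, summed signal 273219 to 295945 on Cox-1 KO and 259811 to 295318 on WT arrays).

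Apolipoproteins are the protein components of lipoprotein particles, which carry triglyceride, cholesterol and fat-soluble vitamins. In adult animals most are made by liver and intestine, where Mttp and Apob together start the assembly of very low density lipoprotein and chylomicrons. The visceral yolk sac of the mouse, whose outer layer is an absorptive endoderm, makes the same proteins during gestation and secretes particles that feed the embryo, and the fetal liver makes them too. Apoe and Apod are made more widely, Apoe by macrophages among other cells.

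Promoter sequences are given for 4 of the genes because their signals mark the contrast within the family: Apoa1, whose arrays define the common pattern; Apob, the structural protein of the particles; and Apoc2 and Apoe, which lie close together on 1 chromosome and behaved differently. They come from RefSeq, build GRCm38.p6, which lists 12 promoters for 9 of the 10 genes. Each runs 5′ to 3′ on the strand of the gene, with 250 bases before the start of transcription and 50 after it. Capitals mark matches to any of 4 motifs, searched on both strands: TATAAA (a core promoter element), AGGTCA (nuclear receptor half-site), CAAAGTCCA (core of HNF4 sites) and GTTAAT (HNF1 half-site). None of the motifs overlapped another in these 4 windows.
Apoa1 (chr9:46228380-46228679, + strand): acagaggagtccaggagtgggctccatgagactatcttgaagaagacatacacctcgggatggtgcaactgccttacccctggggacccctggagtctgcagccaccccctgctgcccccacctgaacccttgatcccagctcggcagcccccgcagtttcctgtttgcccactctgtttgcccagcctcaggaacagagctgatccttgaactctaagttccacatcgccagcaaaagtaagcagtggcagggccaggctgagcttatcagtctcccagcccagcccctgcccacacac
Apob (chr12:7977427-7977726, + strand): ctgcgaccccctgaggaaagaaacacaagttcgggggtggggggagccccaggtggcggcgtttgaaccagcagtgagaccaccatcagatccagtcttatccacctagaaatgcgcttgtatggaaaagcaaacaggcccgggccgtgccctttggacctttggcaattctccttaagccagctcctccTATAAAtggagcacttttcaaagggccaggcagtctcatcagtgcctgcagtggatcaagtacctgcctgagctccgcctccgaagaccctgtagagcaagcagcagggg
Apoc2 (chr7:19677892-19678191, - strand): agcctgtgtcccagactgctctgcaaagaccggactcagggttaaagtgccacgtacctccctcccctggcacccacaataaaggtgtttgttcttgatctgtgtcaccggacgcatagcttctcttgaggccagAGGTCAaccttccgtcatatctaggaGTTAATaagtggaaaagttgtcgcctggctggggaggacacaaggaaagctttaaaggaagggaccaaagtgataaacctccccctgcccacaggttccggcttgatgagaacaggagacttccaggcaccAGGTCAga
Apoe (chr7:19699139-19699438, - strand): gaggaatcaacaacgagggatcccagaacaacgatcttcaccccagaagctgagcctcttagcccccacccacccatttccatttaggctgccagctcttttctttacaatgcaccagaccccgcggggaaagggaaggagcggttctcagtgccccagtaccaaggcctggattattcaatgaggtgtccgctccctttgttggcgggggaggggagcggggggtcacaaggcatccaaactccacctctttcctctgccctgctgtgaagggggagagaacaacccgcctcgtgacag
The Apob window held TATAAA from 60 bases before the start. Apoc2 held AGGTCA from 115 bases before and from 43 bases after the start, and GTTAAT from 89 bases before it. The Apoa1 and the Apoe windows shown held none of the 4 motifs. Of the 32851 mouse promoter windows of this length, 13.6% held TATAAA, 16.3% AGGTCA, 0.475% CAAAGTCCA and 7.1% GTTAAT. Among all 9 genes with a promoter entry, 3 had TATAAA (Apoa2, Apob and Apoe), 2 had AGGTCA (Apoa2 and Apoc2), 2 had GTTAAT (Apoc2 and Apoe) and 0 had CAAAGTCCA in at least 1 window, so none of the motifs was found in all of them. Those counts are per gene, while the shares above are per window. Per window, 3 of the 12 held TATAAA, 2 AGGTCA, 2 GTTAAT and 0 CAAAGTCCA.

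The genes were described by how their 8 signals fell apart. The signals of a probe set were sorted on the log2 scale, and the largest step between neighbours was taken. A probe set was said to split when that step was at least 1, a doubling, and had the same 4 arrays above it as Apoa1. The pattern on the arrays was what the rule for these genes looked at, so it is given as a description with no test. By this rule 14 of the 16 member probe sets split, for 8 of 10 genes, and in all tested probe sets 153 of 26444 did (0.579%), for 108 genes. The smallest step among those that split was 1.85 (the second Mttp probe set), and the largest among those that did not was 0.45 (Apod).

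**Figure D1:**
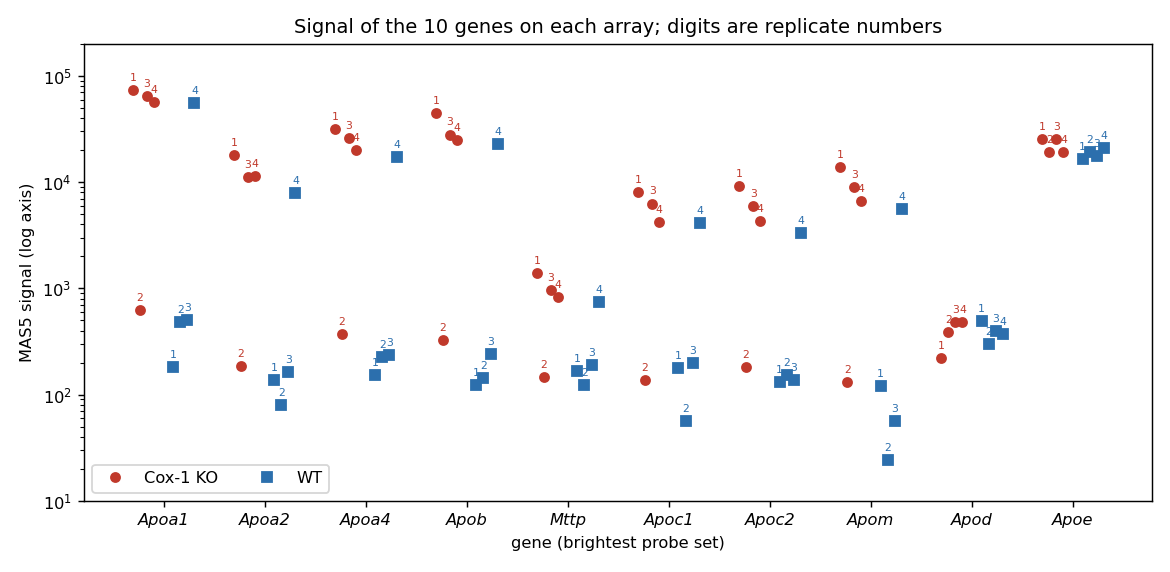
MAS5 signal (log axis) of the brightest probe set of each of the 10 genes on each array, with Cox-1 KO arrays as red circles, WT arrays as blue squares and replicate numbers beside them. Cox-1 KO replicates 1, 3 and 4 and WT replicate 4 sit together at the top for 8 genes, while Apod and Apoe have all 8 arrays together; heights of different genes are not comparable, since probe sets differ in how well they bind.

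Apoa1, the main protein of high density lipoprotein, was measured by 4 probe sets. On the brightest (1419233_x_at), its signal was 73950, 631, 65189 and 56615 on Cox-1 KO replicates 1 to 4, against 183, 481, 505 and 55059 on WT replicates 1 to 4. The groups thus overlapped over nearly the whole range, with 1 Cox-1 KO array among the low ones and 1 WT array among the high ones. Between the lowest high array (WT replicate 4) and the highest low array (Cox-1 KO replicate 2) lay an 87.3-fold gap, a step of 6.45 on the log2 scale. The other 3 probe sets had steps of 5.90, 6.26 and 6.34, with the same arrays above. The suffix _x_at marks a probe set whose probes can also match other transcripts, and 1419232_a_at, which has no such mark, read 77310, 583, 58649 and 47334 on Cox-1 KO and 179, 345, 449 and 48415 on WT arrays.

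Apoa2, the second protein of high density lipoprotein, is encoded on another chromosome (chromosome 1) than Apoa1 (chromosome 9). Its signal was 18074, 184, 11173 and 11401 on Cox-1 KO arrays, against 138, 80, 163 and 7834 on WT arrays. The same arrays were high, and the gap between them and the rest was 42.6-fold. Apoa4, made with chylomicrons in the intestine, had 31859, 368, 25944 and 19995 on Cox-1 KO and 154, 227, 234 and 17386 on WT arrays, with a gap of 47.2-fold. Its other probe set (1417761_at) had 32803, 165, 22293 and 16833 on Cox-1 KO and 133, 75, 34 and 14414 on WT arrays, with a gap of 87.4-fold. Both probe sets of Apoa4 put the same array in each of the first 4 places.

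Apob, the large structural protein without which very low density lipoprotein and chylomicrons are not formed, had 45088, 325, 28104 and 25125 on Cox-1 KO arrays, against 124, 144, 242 and 23103 on WT arrays. Here the gap was 71.1-fold. Mttp, its partner in particle assembly, had 1385, 146, 975 and 836 on Cox-1 KO arrays and 168, 123, 189 and 746 on WT arrays. The second Mttp probe set (1419400_at) had 1293, 203, 1020 and 783 on Cox-1 KO and 97, 170, 151 and 731 on WT arrays. Mttp thus followed the same arrays as Apob with a much smaller step, 1.98 and 1.85 on its 2 probe sets against 6.15 for Apob, and with a step of at least 2 required, Mttp no longer counted and 12 probe sets of 7 genes split.

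Apoc1 and Apoc2 are small exchangeable apolipoproteins. Apoc1, which slows the uptake of particles, had 8002, 136, 6295 and 4226 on Cox-1 KO arrays, against 179, 56, 199 and 4100 on WT arrays. Apoc2, the activator of lipoprotein lipase, had 9279, 182, 5951 and 4320 on Cox-1 KO arrays, against 132, 152, 137 and 3295 on WT arrays. The gaps were 20.6-fold for Apoc1 and 18.1-fold for Apoc2, again between the same arrays. Apom, which binds sphingosine 1-phosphate in high density lipoprotein, had 13827, 130, 8950 and 6698 on Cox-1 KO and 120, 24, 56 and 5573 on WT arrays. Its other probe set (1419095_a_at) had 13237, 68, 7920 and 5604 on Cox-1 KO and 6, 10, 9 and 4608 on WT arrays. That probe set reached a signal of 100 on the 4 high arrays alone, so it was kept by the filter on low signals only through them, whereas every other member probe set reached 100 on more than 4 arrays.

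The 4 high arrays were not alike. Cox-1 KO replicate 1 was the brightest in 14 of the 14 probe sets that split, and Cox-1 KO replicate 3 the second in 13. WT replicate 4 was the dimmest of the 4 in 13, and in the remaining probe set (1419232_a_at of Apoa1) Cox-1 KO replicate 4 did. Signal on Cox-1 KO replicate 1 relative to WT replicate 4 was 1.34-fold for Apoa1, 1.83-fold for Apoa4, 1.86-fold for Mttp, 1.95-fold for Apob and for Apoc1, 2.31-fold for Apoa2, 2.48-fold for Apom and 2.82-fold for Apoc2. Apoa1, with the smallest of these ratios, had its signal on Cox-1 KO replicate 1 close to the brightest of any probe set on an array. Among the 4 low arrays, Cox-1 KO replicate 2 had the highest signal in 11 of the 14 probe sets and WT replicate 1 the lowest in 9. For Apoa1 these low arrays still spread 3.45-fold, between 631 on Cox-1 KO replicate 2 and 183 on WT replicate 1.

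Apoe, the ligand by which remnant particles are taken up through receptors of the low density lipoprotein receptor family, had a signal of 25363, 19326, 25570 and 19402 on Cox-1 KO arrays and 16619, 19032, 17666 and 21012 on WT arrays. The highest array was 1.54-fold above the lowest. Its mean was 22415 ± 3524 on Cox-1 KO and 18582 ± 1897 on WT arrays (SD, n = 4 each), and Cox-1 KO replicates 2 and 4 lay within the WT range. The 4 arrays high in Apoa1 were also the 4 highest for Apoe, but by a margin of 19402 on Cox-1 KO replicate 4 over 19326 on Cox-1 KO replicate 2, and the largest step was 0.27. Macrophage genes, given beside Apoe because macrophages make it, had a summed signal of 45695 to 52410 on Cox-1 KO and 44303 to 48287 on WT arrays (7 of 7 genes measured), and their part in the Apoe signal was not tested.

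Apod, a lipocalin, as Apom is, that binds small lipids such as arachidonic acid, had 221, 386, 483 and 487 on Cox-1 KO arrays and 495, 302, 394 and 374 on WT arrays. Its mean was 394.2 ± 125 on Cox-1 KO and 391.2 ± 79.7 on WT arrays (SD, n = 4 each). The arrays stood in another order than for Apoa1, with Cox-1 KO replicate 1 the lowest and WT replicate 1 the highest, and the range was 2.24-fold.

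**Figure D2:**
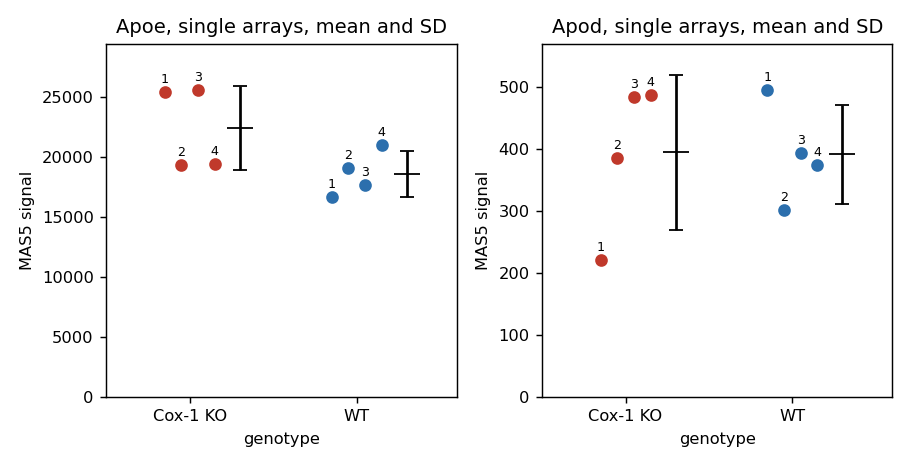
MAS5 signal (linear axis from 0) of Apoe and of Apod on single arrays, as points with replicate numbers, and the mean with SD of the 4 arrays of each genotype as a bar. Apoe lies between 16619 and 25570 and Apod between 221 and 495, and the Cox-1 KO and WT arrays overlap in both.

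The comparison of genotypes asked whether loss of Cox-1 changed these genes in the uterus at day 18.0. It was fitted with limma on log2 signal across the 26444 probe sets that reached a signal of 100 on 4 arrays or more, with Benjamini-Hochberg adjusted p-values over the whole table. No member passed: 0 of the 16 reached an adjusted p under 0.05, where 3 of all tested did (0.0113%), and adjusted p-values of the members were 0.53 to 0.978. The unadjusted p was under 0.05 for 10 of the 16, where 8.81% of all tested probe sets had such a p in either direction. In 15 of the 16 probe sets the mean log2 signal was higher in Cox-1 KO, against 42.5% of all tested. For the 14 that split, the direction is fixed by 3 of the 4 high arrays being Cox-1 KO and 1 WT, so these counts repeat the pattern and add nothing to it. None of the 16 had all 4 Cox-1 KO arrays above all 4 WT arrays (1.5% of all tested) or below them (2.91%), and by the methods' own thresholds 0 of the 16 would be called (0.862% of all tested).

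Log2 fold changes, Cox-1 KO over WT, were 4.03 (SE 1.84) for Apoa1, 3.72 (SE 1.6) for Apoa2, 3.85 (SE 1.65) for Apoa4 and 4.17 (SE 1.81) for Apob. They were 1.46 (SE 0.693) for Mttp, 2.95 (SE 1.41) for Apoc1, 3.06 (SE 1.28) for Apoc2 and 4.22 (SE 1.72) for Apom. The large standard errors come with values on both sides of the gap within each genotype. The second Apom probe set was at 5.98 (SE 2.14), set against WT signals of 6, 10 and 9 that are too low to give the size of a change. Apoe was at 0.26 (SE 0.107, adjusted p = 0.541 by limma) and Apod at -0.03 (SE 0.251, adjusted p = 0.978). The median over the 10 genes was 3.39, and over all tested probe sets it was -0.03.

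The fold changes were also computed without the 4 arrays high in Apoa1, which left 1 Cox-1 KO and 3 WT arrays. This was chosen after seeing the data, and because the arrays were left out by the signal of Apoa1 itself the values are a description. The log2 fold change was then 0.83 for Apoa1, 0.60 for Apoa2, 0.87 for Apoa4, 1.0 for Apob, -0.11 for Mttp, 0.11 for Apoc1, 0.38 for Apoc2 and 1.26 for Apom. For Apoe it was 0.12 and for Apod -0.01. The sign of the Mttp value differed from that on all 8 arrays.

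**Figure D3:**
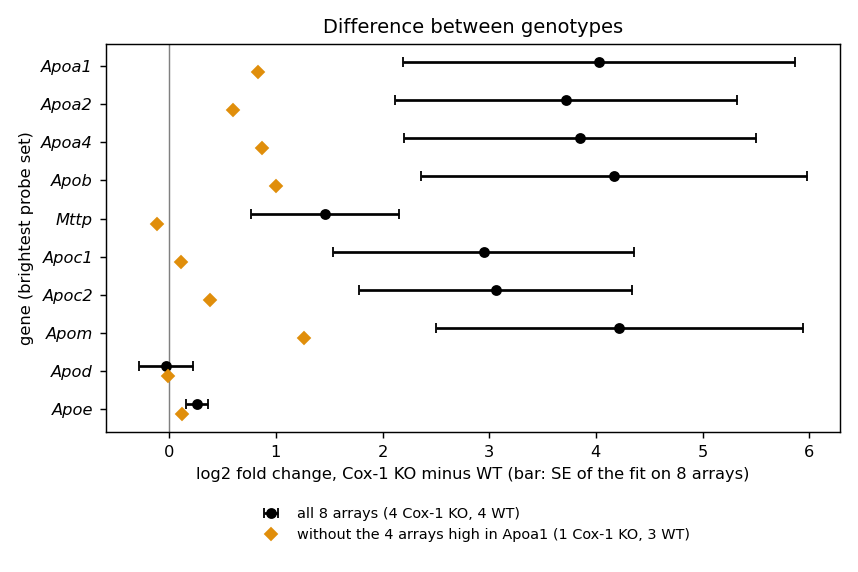
Log2 fold change of the 10 genes, Cox-1 KO over WT, with all 8 arrays (black circles, bars are the standard error of the limma fit) and without the 4 arrays high in Apoa1 (orange diamonds, 1 Cox-1 KO and 3 WT arrays, no error drawn). Without those arrays the values lie between -0.11 and 1.26, where Apoa1, Apob and Apom had values above 4 on all 8 arrays.

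Markers of other tissues moved with these genes. Of the 13 listed genes of visceral yolk sac other than apolipoproteins 11 were measured, and their summed signal was 216603, 42697, 188039 and 182305 on Cox-1 KO replicates 1 to 4 and 32697, 36829, 39680 and 162235 on WT replicates 1 to 4. The list split as Apoa1 did in 7 of the 11. Of those that did not, Entpd2 (6374 to 12176 against 3385 to 3934) and Slc39a5 (359 to 715 against 7 to 86) still had the 4 arrays high in Apoa1 highest. Slc39a5 passed the filter on low signals only through those arrays, and its largest step lay above the 7 on WT replicate 1. Pga5 had 314, 168, 248 and 340 on Cox-1 KO and 190, 188, 248 and 349 on WT arrays, and Rbp4 is given below. Of 13 listed genes of fetal liver hepatocytes 9 were measured, with a sum of 249659, 5361, 207921 and 181852 on Cox-1 KO and 4637, 3693, 4492 and 169254 on WT arrays, and 8 of the 9 split. Afp (alpha-fetoprotein) and Ttr (transthyretin, a carrier of thyroid hormone) stand on both lists. Some genes that stand on 1 list alone split too. Alb (albumin), a hepatocyte gene of these lists, had 46060, 591, 39800 and 33370 on Cox-1 KO and 811, 738, 669 and 30053 on WT arrays. Cubn (cubilin) is an endocytic receptor of yolk sac endoderm and kidney. It had 12360, 159, 7441 and 5642 on Cox-1 KO and 86, 29, 131 and 5883 on WT arrays. Cyp2e1 was the measured hepatocyte gene that did not split. It had 556, 624, 3059 and 1793 on Cox-1 KO and 1858, 189, 669 and 990 on WT arrays. Hnf4a (yolk sac list) and Fgb (hepatocyte list) split, but passed the filter on low signals only through the arrays high in Apoa1. Cps1, Tat, Cyp7a1 and Ahsg of the hepatocyte list had no probe set. No measured marker of these lists was at 0, and the yolk sac sum kept 32697 or more on the low arrays mostly through Rbp4, the plasma carrier of retinol, which had 26827 to 39535 on all 8 arrays.

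The sums of the uterine, trophoblast and adipocyte lists put the arrays in other orders. Stroma and decidua genes (7 of 7 measured) summed to 91424 to 120324 on Cox-1 KO and 92759 to 105833 on WT arrays, and epithelium and gland genes (7 of 7) to 98328 to 115853 on Cox-1 KO and 69926 to 108311 on WT arrays, with Foxa2 the single gene among them that split. Trophoblast genes (4 of 11 measured, of which Tpbpa made up most) summed to 14345 to 18234 on Cox-1 KO and 6641 to 19280 on WT arrays, and 0 split. Adipocyte genes (3 of 6) summed to 10541 to 21632 on Cox-1 KO and 6785 to 14640 on WT arrays. Fetal erythroid genes (3 of 6) summed to 1566, 1068, 1598 and 3122 on Cox-1 KO and 584, 791, 1250 and 1484 on WT arrays, so their 4 highest arrays were those high in Apoa1, though by smaller margins. Hbb-y, an embryonic globin that did not pass the filter on low signals, had 49, 6, 64 and 278 on Cox-1 KO and 2, 1, 5 and 26 on WT arrays. Alas2, which starts heme synthesis in red cells, had 1240, 683, 1188 and 2546 on Cox-1 KO and 344, 555, 982 and 1125 on WT arrays. It made up most of the sum on each array. Epor did not share that order, with 277, 379, 346 and 298 on Cox-1 KO and 238, 235, 263 and 333 on WT arrays. Its highest array was Cox-1 KO replicate 2, which was low in Apoa1. The part of yolk sac, fetal liver or fetal blood RNA in the apolipoprotein signal was not tested, and in whole tissue fewer cells of a type and less RNA per cell cannot be told apart.

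**Figure D4:**
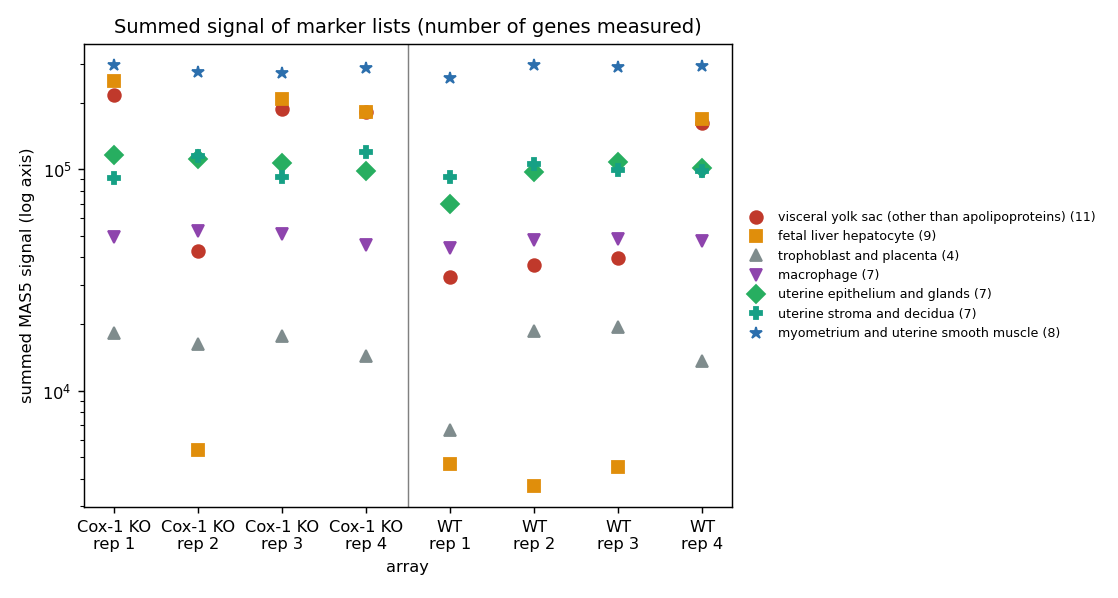
Summed MAS5 signal (log axis) of marker lists on each array, Cox-1 KO arrays left and WT arrays right, with the number of genes measured in brackets. Visceral yolk sac and fetal liver sums are high on Cox-1 KO replicates 1, 3 and 4 and WT replicate 4, while smooth muscle, stroma and macrophage sums stay level across the 8 arrays.

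Likeness to Apoa1 was measured as the root mean square difference of log2 signal over the 8 arrays after each gene was centred on its own mean, among 12653 genes. Apob (0.337) and Apoa4 (0.414) were nearer to Apoa1 than any gene outside the family. The nearest outside it were Serpina1b (0.496), Ttr (0.516), Spink1 (0.544), Agt (0.591), Spp2 (0.608), Fgg (0.679), Fga (0.695), Serpina1c (0.881), Cubn (0.891) and Cdhr2 (0.965). These encode secreted plasma proteins for the most part, with protease inhibitors (Serpina1b, Spink1, Serpina1c), fibrinogen chains (Fga, Fgg) and angiotensinogen (Agt) among them. Of these genes, Agt, Serpina1c and Cdhr2 passed the filter on low signals only through the arrays high in Apoa1, so their values are approximate. Apoa2 stood at 0.718, Apom at 1.0, Apoc2 at 1.16, Apoc1 at 1.23 and Mttp at 2.38, while Apoe was at 3.49 and Apod at 3.73. Apoe was nearest to Sgk3 (0.0517), Slc12a9 (0.0629), Pdzk1ip1 (0.0683), Rin3 (0.0699), Chrnb1 (0.0701), Fcgrt (0.0713), Tmbim1 (0.0716), Slc7a7 (0.0723), Abhd5 (0.0734) and Mfsd1 (0.0769). The measure favours genes that vary as little as Apoe does, so small values there are common.

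Neighbours on the chromosome did not always share a pattern. In GRCm38.p6 order, Apoc2, Apoc4, Apoc1 and Apoe follow each other on chromosome 7, and Apoc2 and Apoc1 had steps of 4.18 and 4.36 where Apoe, next to Apoc1, had 0.27. Tomm40, a subunit of the mitochondrial import pore on the other side of Apoe, had 1690, 1663, 1840 and 1663 on Cox-1 KO and 1736, 1960, 1648 and 1601 on WT arrays. On chromosome 9, Apoa1, Apoc3 and Apoa4 are neighbours and all split, with steps of 6.45, 1.64 and 5.56. The nearest measured genes on either side, Sik3 and Zpr1, had steps of 0.46 and 0.17, and Apoa5 lies between Apoa4 and Zpr1. Apoc4 and Apoa5 had no probe set in the table. The other members lie apart, Apoa2 on chromosome 1, Mttp on 3, Apob on 12, Apod on 16 and Apom on 17.

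**Figure D5:**
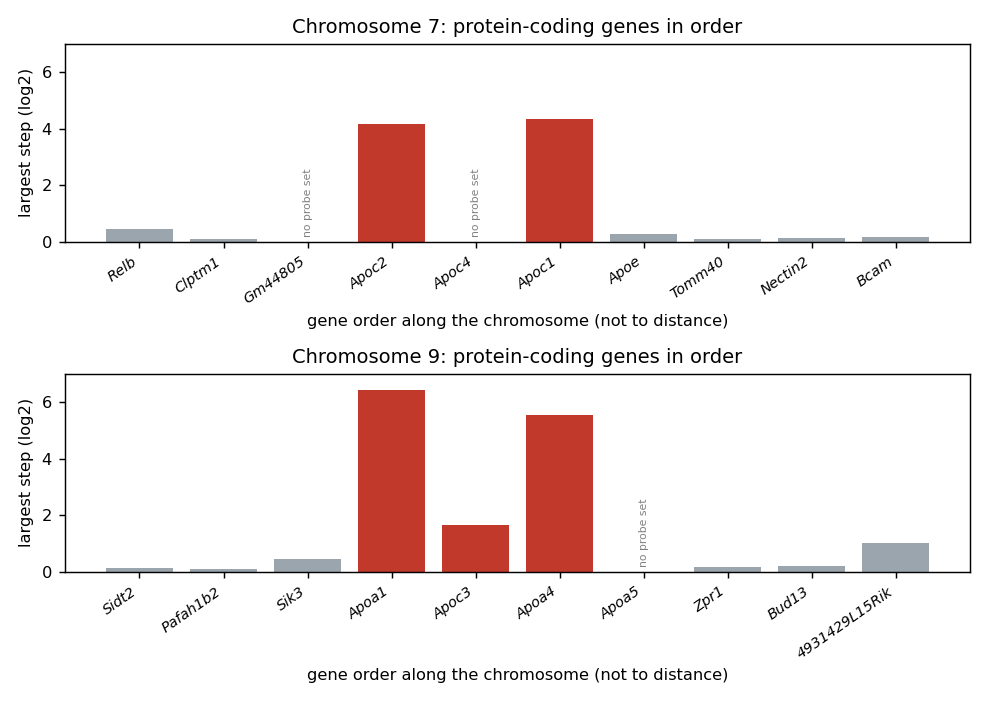
Largest step in log2 signal between neighbouring arrays for genes in chromosome order around Apoe (chromosome 7) and Apoa1 (chromosome 9), with red bars for genes that split into the same arrays as Apoa1 and grey bars for the others. Apoc2 and Apoc1 reach 4.18 and 4.36 beside Apoe at 0.27, and Apoa1, Apoc3 and Apoa4 stand between Sik3 at 0.46 and Zpr1 at 0.17. Apoa5, between Apoa4 and Zpr1, has no probe set.

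The wider lipoprotein pathway was followed in 103 listed genes, of which 73 had a probe set and were tested. Between genotypes 0 of them passed an adjusted p under 0.05, 18 had an unadjusted p under 0.05 and were higher in Cox-1 KO (3.69% of all tested), and 2 had one and were lower (5.12%). An unadjusted p under 0.05 in either direction was thus found in 27.4%, against 8.81% of all tested. In all, 54 stood higher (74%, against 42.5% of all tested) and 19 lower in Cox-1 KO. The log2 fold change had a median of 0.08, against -0.03 over all tested. Of the 73, 8 split as Apoa1 did (11%, against 0.579% of all tested), and the list holds genes known from yolk sac and liver. For the 8, the direction is fixed by 3 of the 4 high arrays being Cox-1 KO, so the counts of higher genes partly repeat the pattern. The repeat is not confined to the 8, since some genes that did not split had the same 4 arrays highest. Among the 18 these were Saa3, Dgat2, Dab2, Lrpap1, Lpl and Nr1h4, while the rest of the 18 outside the 8 did not. How far the 27.4% goes with those arrays was not tested. Among the 8, Hnf4a was kept by the filter only through the 4 high arrays. Among other apolipoproteins 1 of 9 split, Apoc3, an inhibitor of lipolysis, with 659, 70, 571 and 319 on Cox-1 KO and 92, 91, 102 and 322 on WT arrays. Apoa1 and Apoc3 thus shared their arrays, with a far smaller step for Apoc3.

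In particle assembly and secretion 1 of 15 split, Cideb, a lipid droplet protein that acts in lipidation of particles (797, 270, 565 and 563 on Cox-1 KO, 218, 244, 132 and 663 on WT arrays). Mogat2, Dgat2 and Sec23a of that list also had the 4 arrays high in Apoa1 highest, but their largest steps of 0.87, 0.26 and 0.08 were under the limit. On those arrays Mogat2 had 522 to 955 against 196 to 285 on the others. Dgat2 had 1873 to 2697 against 1247 to 1644, and Sec23a 4598 to 5036 against 4141 to 4371. General secretory genes did not split. Sar1b, the coat protein that exports large particles, had 8055 to 9144 on Cox-1 KO and 8470 to 8606 on WT arrays. P4hb, the subunit with which Mttp works as a dimer, had 28868 to 30577 on Cox-1 KO and 28265 to 30114 on WT arrays. Mttp therefore split on arrays where its partner P4hb stayed level.

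Among receptors and their partners 3 of 20 split, and the 3 are parts of 1 endocytic complex. Dab2 of that list also had the 4 arrays high in Apoa1 highest, but its step of 0.37 was under the limit. Its signal was 10843 to 15820 on those arrays and 6329 to 8389 on the others. Lrp2 (megalin) had 3727, 128, 2048 and 1953 on Cox-1 KO and 108, 92, 119 and 1876 on WT arrays. Amn (amnionless), which anchors Cubn in the membrane, had 2839, 414, 2660 and 1991 on Cox-1 KO and 351, 324, 277 and 1840 on WT arrays. Cubn had the widest step of the pathway list, 5.15. Other receptors of the same family that bind Apoe did not split, with Vldlr at 14475 to 19771 on Cox-1 KO and 14020 to 16347 on WT arrays and Lrp1 at 7963 to 8789 on Cox-1 KO and 7367 to 8553 on WT arrays. Lrp8 was dim, at 113 to 263 on Cox-1 KO and 120 to 213 on WT arrays. Sar1b, P4hb, Dgat2, Mogat2, Sec23a, Dab2, Vldlr, Lrp1 and Lrp8, and Lpl of the next list, were picked for mention after their values were seen. So were Saa3, Lrpap1 and Nr1h4.

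In lipases and remodelling of high density lipoprotein 0 of 13 split. Lpl (lipoprotein lipase) had the 4 arrays high in Apoa1 highest, at 8656 to 10943 against 5691 to 7411, but its largest step was 0.26. Abcg1, an exporter of cholesterol to high density lipoprotein, had 1730, 1568, 1875 and 1587 on Cox-1 KO and 1233, 1319, 1310 and 1175 on WT arrays, with a log2 fold change of 0.42 (SE 0.0849, adjusted p = 0.21 by limma). Lipa, the lysosomal acid lipase, had 2217, 2533, 2620 and 2316 on Cox-1 KO and 1776, 1969, 1800 and 2061 on WT arrays, a log2 fold change of 0.35 (SE 0.0819, adjusted p = 0.308). Both had all Cox-1 KO arrays above all WT arrays, as did 4 of the 73 listed genes (5.48%, where 1.5% of all tested did), and neither passed the adjusted threshold. Apobec2, a relative of the enzyme that edits Apob RNA, had the smallest p of the list, with 421, 150, 262 and 516 on Cox-1 KO and 85, 67, 32 and 95 on WT arrays (log2 fold change 2.24, SE 0.44, adjusted p = 0.193). Apobec2 was kept by the filter on low signals only through the Cox-1 KO arrays. Its WT signals are too low to give the size of a change. Its p and its place among the 4 genes without overlap carry the same limit. The study had picked Apobec2 on these same samples.

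Among transcription factors 3 of 16 split. Hnf4a, the nuclear receptor that drives apolipoprotein genes in liver and yolk sac endoderm, had 1710, 31, 628 and 758 on Cox-1 KO and 14, 18, 33 and 634 on WT arrays, a step of 4.25. Creb3l3, a liver and intestine factor that acts on Apoa4 and Apoc2, had 1119, 264, 931 and 622 on Cox-1 KO and 256, 232, 217 and 643 on WT arrays. Foxa2, found in endoderm and in uterine glands, had 717, 76, 377 and 255 on Cox-1 KO and 76, 94, 116 and 378 on WT arrays. Hnf4a had the widest step of the 3, against 1.24 for Creb3l3 and 1.14 for Foxa2. It was kept by the filter on low signals only through the arrays high in Apoa1. Its signals of 14 to 33 on the other arrays are too low to give the size of that step.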

How the data were processed

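The authors labelled uterine RNA of 8 mice, hybridized it to 430 2.0 arrays and deposited MAS5 signal intensity on a linear scale, scaled per array to a target of 1000. The deposited signals carry no detection calls, and how the 28000 probe sets were selected is not given in the sources used here. After raising 1 value below 1 to a floor of 1, log2 was taken. Probe sets that reached 100 on 4 arrays or more were kept, and the 60 controls left out. Cox-1 KO was compared with WT by limma 3.58.1 with a variance trend (R 4.3.3) and Benjamini-Hochberg adjustment, after a test on simulated data; Python 3.11.15 did the rest. The number of arrays limits precision, and nothing in the labels gives a batch.

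A gene is given by its brightest probe set over the 8 arrays, with all 16 probe sets for the members. Named beside them are the 10 genes most like Apoa1 and Apoe, the 3 pathway genes with the smallest p, those that split as Apoa1, and Ptgs1, whose probe set (1436448_a_at) was identified through the study's additional file. Members and lists were chosen with earlier results of these data known. Alternatives were an added 32, a floor of 100, no filter or one at 200, median centring or quantile normalization, array weights, a robust fit, a fit with no trend, leaving out each array, a replicate block, a step of 2, the methods' t-test and other probe sets of a gene.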

Additional observations from a re-analysis of the deposited data

Results flagged for a closer look

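Within a genotype, 1 array often stood far from the other 3. Each value here is the gap of that array to its nearest neighbour as a share of the range of the 4 log2 signals, and values above Dixon's critical value for 4 samples are given. This held in 23 of 56 groups. Chance flags about 5% of groups, but these genes were followed for the pattern they make over the arrays, so the count restates that pattern and is a description.

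On Cox-1 KO replicate 2, lower than the other 3 Cox-1 KO arrays, the value was 0.944, 0.943, 0.900 and 0.933 for the Apoa1 probe sets 1419233_x_at, 1455201_x_at, 1419232_a_at and 1438840_x_at. It was 0.895 for Apoa2, 0.896 and 0.874 for the Apoa4 probe sets 1436504_x_at and 1417761_at, 0.881 for Apob, 0.843 for Apoc1, and 0.845 and 0.837 for the Apom probe sets 1419096_at and 1419095_a_at. On WT replicate 4, higher than the other 3 WT arrays, it was 0.876 and 0.836 for Apoa1 (1455201_x_at and 1419232_a_at), 0.845 for Apoa2, 0.911 for Apoa4 (1436504_x_at), 0.872 for Apob, 0.956 for Apoc2 and 0.923 for Apom (1419095_a_at). In the pathway list the same array stood out for Apoc3 (0.910), Lrp2 (0.915), Amn (0.875) and Creb3l3 (0.848). Of the 23 groups, 11 were on Cox-1 KO replicate 2 and 11 on WT replicate 4. Neither Apoe, Apod nor Mttp had a value above the limit. In the remaining group, WT replicate 1 was low for Ptgs1 (0.945), with a signal of 7048 against 10508 to 10756 on the other WT arrays.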

How the results depend on the processing

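Of 196 log2 fold changes of the 10 genes under the alternatives, 192 kept their direction and missed the adjusted threshold as before, and the lowest adjusted p was 0.132. Apod turned to 0.06 with array weights, 0.22 without Cox-1 KO replicate 1 and 0.09 without WT replicate 1, and Mttp to -0.11 without the 4 arrays high in Apoa1; for Apod the cause was not tested. With each array left out in turn, Apoa1 ranged from 3.10 to 5.85, Apod from -0.16 to 0.22 and Apoe from 0.19 to 0.33. The count of member probe sets that split, 14, was 14 after quantile normalization and 12 with a step of 2, and the count over all tested probe sets, 153, became 149 and 86. Probe sets past an adjusted p of 0.05, 3 in all, became 18 with array weights, 10 with a constant of 32, 11 with median centring, 6 with a robust fit, 12 with signals under 100 set to 100, 6 without the 4 high arrays and 228 by the methods' t-test and thresholds; with single arrays left out they ranged from 2 to 25, with 25 without WT replicate 1 and 9 without Cox-1 KO replicate 2 or without Cox-1 KO replicate 4. The methods' thresholds called 1 gene of the pathway list (Apobec2, kept by the filter only through the Cox-1 KO arrays) where limma called 0, and 0 members. Replicate numbers did not pair the samples (deviations of same-numbered arrays correlated at -0.25, 0.22, -0.18 and 0.17), and a replicate block left the count of calls at 3. Without detection calls, signals under about 100 have no known background, so gaps against the lowest signals are approximate.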
